A study of Mus musculus with 12 samples.

Results

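The genes described here are 10 genes of coenzyme Q synthesis and handling, Pdss1, Coq2, Coq3, Coq4, Coq5, Coq6, Coq7, Coq9, Coq10a and Coq10b, out of 39248 rows in a table of mRNA levels from mouse 3T3-L1 adipocytes. They were taken by gene symbol, and each symbol had 1 row. The set was selected on Coq4, which was picked for its large fall after knockdown of Zfp407, so the change of Coq4 is given as a description with no test, and the other 9 genes were tested. 3T3-L1 is an established line of fibroblast-like mouse preadipocytes that accumulates fat after hormonal differentiation in culture. Differentiated cells were electroporated with 0.75 nmol of a control siRNA (6 libraries) or of an siRNA that targets the zinc finger gene Zfp407 (2 such siRNAs, 3 libraries apiece), all 2 days past differentiation. The series title places the study in insulin-stimulated glucose uptake. The columns of the knockdown libraries do not carry the siRNA, so they stand here as 1 arm of 6. Every library had its own electroporation, and all came from the same cell line, so the p-values measure the spread between electroporations and, in the knockdown arm, any difference between the siRNAs.

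Coenzyme Q, or ubiquinone, is a lipid of the inner mitochondrial membrane that carries electrons from the dehydrogenases of the respiratory chain to complex III and also acts as an antioxidant. A long isoprenoid tail is first assembled from mevalonate-derived units and joined to a benzoquinone ring precursor. The ring is then hydroxylated, decarboxylated and methylated by enzymes that work together on the matrix side of the inner membrane. In adipocytes, low mitochondrial coenzyme Q has been linked to insulin resistance.

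Stretches of 250 bases directly upstream of a transcription start are shown for Coq4, because its start lies inside a neighbouring gene, and for Coq10a and Coq10b, because of these paralogs Coq10a was called lower and Coq10b did not pass. They are RefSeq promoter sequences on GRCm38.p6, written 5′ to 3′ on the strand of the gene, with every CG pair in capitals. The Coq4 window is chr2:29787243-29787492 on the plus strand and holds 11 CG pairs. It lies directly upstream of the longest annotated Coq4 transcript only, and the other annotated transcripts start further downstream, the nearest at chr2:29788220. The Coq10a window is chr10:128368981-128369230 on the minus strand and holds 22. Coq10a has 2 RefSeq starts, and this window lies inside the measured row, whereas the window of the other start, chr10:128370038-128370287, lies just upstream of the row and holds 5. The Coq10b window is chr1:55052520-55052769 on the plus strand and holds 21.
Coq4: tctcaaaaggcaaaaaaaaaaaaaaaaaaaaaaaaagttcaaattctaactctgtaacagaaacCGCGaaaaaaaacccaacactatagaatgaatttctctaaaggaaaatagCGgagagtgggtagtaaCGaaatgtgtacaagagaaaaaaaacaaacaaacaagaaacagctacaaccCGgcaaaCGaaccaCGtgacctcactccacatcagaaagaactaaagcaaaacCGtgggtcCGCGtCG
Coq10a: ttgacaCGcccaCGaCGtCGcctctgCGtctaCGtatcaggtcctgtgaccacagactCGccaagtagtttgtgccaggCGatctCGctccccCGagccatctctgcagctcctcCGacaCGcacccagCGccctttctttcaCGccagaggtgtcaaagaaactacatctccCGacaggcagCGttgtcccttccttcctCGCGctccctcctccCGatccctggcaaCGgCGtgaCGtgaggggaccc
Coq10b: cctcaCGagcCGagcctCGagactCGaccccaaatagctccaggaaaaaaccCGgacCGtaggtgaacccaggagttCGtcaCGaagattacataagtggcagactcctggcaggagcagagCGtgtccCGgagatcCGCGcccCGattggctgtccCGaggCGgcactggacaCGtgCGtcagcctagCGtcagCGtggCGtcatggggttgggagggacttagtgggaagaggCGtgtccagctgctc

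The median over the 32851 RefSeq windows of this length was 6 CG pairs. Fewer CG pairs than in the Coq4 window were found in 64.4% of all windows, against 83.7% for the Coq10b window and 85.2% for the printed Coq10a window. For the other Coq10a window the share was 44.4%. A RefSeq window was found for 9 of the 10 genes (11 windows, none for Coq5). The NRF1 motif and the ETS motif CCGGAAG, which recur at promoters of mitochondrial genes, were searched on both strands. Neither occurred in a window of these 9 genes, beside 3.74% and 6.91% of all windows, which says only that those letters are not there.

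Values are FPKM (fragments mapped per kilobase of transcript, divided by library depth) as deposited by the authors, so levels of different genes can be compared per length. Fold changes given as log2 are differences in log2(FPKM + 1), knockdown minus control, from a limma fit over the 14706 rows with a mean of at least 1 FPKM, and understate the change of low genes. A row was called at a Benjamini-Hochberg adjusted p under 0.05 over all those rows. Zfp407 itself ran from 2.70 to 3.16 FPKM in the control libraries (2.84 ± 0.178, SD, n = 6) and from 1.60 to 2.13 in the knockdown libraries (1.79 ± 0.208, SD, n = 6). The arms did not overlap. Its mean fell by 36.9%, with a log2 fold change of -0.46 (SE 0.06, adjusted p = 8.0e-05, exact two-sided permutation p = 0.00216, the smallest that 6 against 6 allows). The authors' deposited table gives Zfp407 a q-value of 0.0734.

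The FPKM of all rows summed to between 2772929 and 3748488, and libraries of the same arm correlated at 0.986 to 0.993 on the log2 scale. Mitochondrially encoded rows held 19.4% to 26.3% of the summed FPKM in 11 libraries and 32.8% in knockdown library 6. Of 8 adipocyte markers, 3 were lower in the knockdown arm and 0 higher, beside 24.8% called lower and 11.6% called higher over all tested rows. None of the 3 passed against a minimum fold of 1.2. The 3 lower markers were Cfd (log2 fold change -0.32, adjusted p = 0.00113, no overlap between arms), Adipoq (-0.29, adjusted p = 0.0168) and Cidec (-0.13, adjusted p = 0.0454). They are named outside the rule for naming genes. The 8 markers summed to 18730 to 22847 FPKM in control and 17291 to 22084 in knockdown libraries. Fabp4, which did not pass, was the largest part of that sum (means of 9588 and 9413 FPKM), so the sum says little about the others. Of 4 preadipocyte markers tested, 0 were called, with sums of 861 to 1022 and 866 to 1132 over all 5 on the list. The macrophage markers with a row of their own summed to at most 0.130 FPKM in any library, and Emr1 was listed at 0 in all. The part of adipocyte marker levels in the results below was not tested, and in bulk RNA a smaller number of cells of a type cannot be told apart from less RNA per cell. One property of the table touches small changes. In 30.4% of 1137 low rows, the FPKM worth of 1 read differed between the arms by more than 0.01 on the log2 scale. Between odd and even libraries it did so in 4.29% of 489 rows within the control arm and 3.17% of 537 within the knockdown arm. Those comparisons within an arm used fewer libraries on each side and fewer rows, so the shares are not strictly alike. The size of that difference between the arms reached 0.23 (log2) at its 90th percentile.

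Among the 9 coenzyme Q genes other than Coq4, Coq5 and Coq10a were lower in the knockdown arm and 0 were higher, while 7 did not pass the test. Coq4, which chose the set, had a knockdown mean 2.61-fold below its control mean. Over all tested rows, 24.8% were called lower and 11.6% higher, so 2 of 9 (22.2%) lies near the background. Against a minimum fold of 1.2, Coq5 alone of the 9 passed, beside 3.69% of all rows called lower under that rule. The 6 knockdown values all lay below the 6 control values in Coq5 and Coq10a, and in none of the 9 did they all lie above. Over all rows, the arms were apart in this way with the knockdown lower in 13.9% and higher in 5.51%. The median log2 fold change of the 10 genes was -0.05, the same as over all tested rows.

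**Figure D1:**
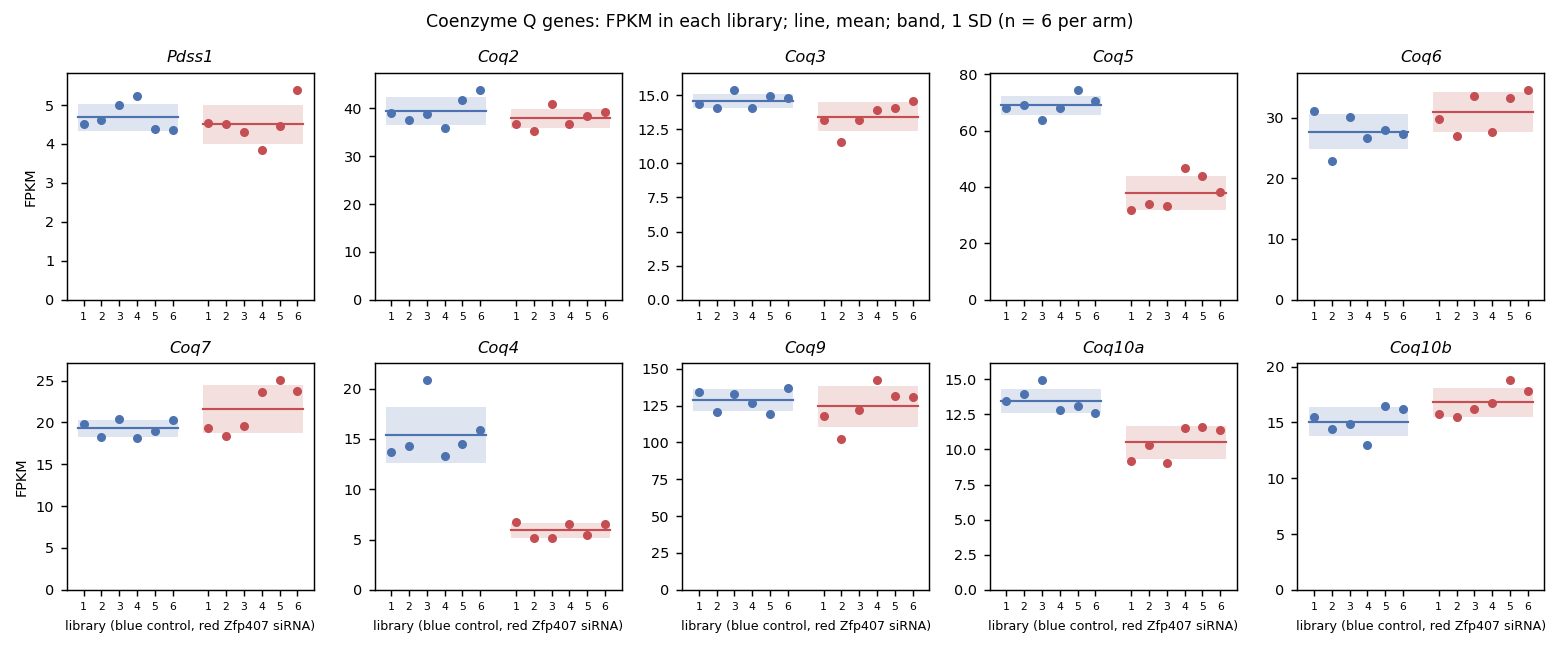
FPKM of each of the 10 coenzyme Q genes (vertical axes from 0, a separate scale in each panel) in the 6 control (blue) and 6 Zfp407 siRNA (red) libraries. Points are libraries, lines are means and bands are 1 SD. The red points lie wholly below the blue ones in Coq4, Coq5 and Coq10a and overlap them in the other 7 panels.

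The isoprenoid tail is made by a synthase of which Pdss1 is 1 subunit. Pdss1 (XLOC_017288, chr2:22895321-23040241) had the lowest level of the set, from 4.37 to 5.22 FPKM in control and from 3.84 to 5.39 in knockdown libraries, ranges that overlapped throughout. Its log2 fold change was -0.05 (SE 0.06, 95% interval -0.19 to 0.09, adjusted p = 0.587), and 5 of the 6 knockdown libraries lay below the control mean. The authors' deposited table marks the comparison at this locus as failed, and 6 rows share the locus.

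Coq2 attaches the tail to the ring precursor 4-hydroxybenzoate. Coq2 (XLOC_026763, chr5:100654703-100678105) averaged 39.4 ± 2.92 FPKM (SD, n = 6) over the controls and 37.9 ± 2.07 (SD, n = 6) over the knockdowns. Individual values ran from 35.8 to 43.9 and from 35.2 to 41.0 and overlapped. The log2 fold change was -0.05 (SE 0.05, 95% interval -0.17 to 0.06, adjusted p = 0.454), and the interval does not reach a change of the size seen for Coq5.

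Ring modification showed the clearest tested difference, in Coq5, the methyltransferase that adds the C-methyl group to the ring. Coq5 (XLOC_025935, chr5:115279666-115300999) gave FPKM values of 68.2, 68.9, 63.8, 67.9, 74.4 and 70.4 across the controls (libraries 1 to 6) and of 31.8, 33.9, 33.1, 46.6, 43.9 and 38.1 across the knockdowns (libraries 1 to 6). The highest knockdown value lay below the lowest control value, and knockdown libraries 4 to 6 stood above libraries 1 to 3. The mean fell from 68.9 ± 3.47 to 37.9 ± 6.14 FPKM (SD, n = 6 each), a 1.82-fold reduction, with a log2 fold change of -0.86 (SE 0.09, 95% interval -1.05 to -0.66, adjusted p = 1.9e-05). Against a minimum fold of 1.2 the adjusted p was 6.2e-04. In the authors' deposited table, Coq5 is the only one of the 10 genes marked significant, with a log2 fold change of -0.87 and a q-value of 0.00534.

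The other enzymes of ring modification did not pass the test. Coq3 (XLOC_022549, chr4:21879673-21912208), which carries out both O-methylations, ran from 14.04 to 15.4 FPKM in control and from 11.6 to 14.6 in knockdown libraries. All 6 knockdown values lay below the control mean of 14.6 ± 0.530 (SD, n = 6), with a log2 fold change of -0.12 (SE 0.05, 95% interval -0.22 to -0.01, adjusted p = 0.0886). It is the closest to the threshold among the lower ones and passed in 2 of the 22 alternative analyses.

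Coq6 and Coq7 had knockdown means above their control means. Coq6 (XLOC_006900, chr12:84345309-84450950), a flavin-dependent ring hydroxylase, ran from 22.9 to 31.1 FPKM in control and from 27.0 to 34.5 in knockdown libraries, with means of 27.7 ± 2.89 and 30.9 ± 3.26 (SD, n = 6 each). The log2 fold change was 0.15 (SE 0.08, 95% interval -0.02 to 0.33, adjusted p = 0.163). Coq7 (XLOC_032328, chr7:118509659-118533356), the di-iron hydroxylase of the penultimate step, ran from 18.2 to 20.4 FPKM in control libraries. In knockdown libraries 1 to 3 it stood at 19.4, 18.3 and 19.6, within the control range, and in libraries 4 to 6 at 23.6, 25.05 and 23.7, above it. Its log2 fold change was 0.15 (SE 0.08, 95% interval -0.02 to 0.31, adjusted p = 0.154).

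Coq4 and Coq9 encode partners rather than classical enzymes of the pathway. Coq4 (XLOC_017406, row locus chr2:29759312-29797935) organises the complex of Coq proteins in yeast, and human COQ4 has been linked to removal of the carboxyl group of the ring. In control libraries 1 to 6 its FPKM was 13.7, 14.3, 20.8, 13.3, 14.5 and 15.9. In knockdown libraries 1 to 6 it was 6.71, 5.13, 5.14, 6.54, 5.40 and 6.55. The arms did not overlap, and control library 3 stood above the other 5 controls. The mean was 15.4 ± 2.803 (SD, n = 6) in the control arm and 5.91 ± 0.761 (SD, n = 6) in the knockdown arm, which is 2.61-fold lower, and the log2 fold change was -1.24. Without control library 3 the control mean was 14.3 ± 0.989 (SD, n = 5) and the knockdown mean was 2.42-fold lower. The authors' deposited table gives Coq4 arm values of 14.7 and 5.70 FPKM and a log2 fold change of -1.37 with a q-value of 1.00, not marked significant.

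Coq9 (XLOC_033291, chr8:94819818-94854897), a lipid-binding protein that associates with Coq7, had the highest level of the set. It ran from 119 to 137 FPKM in control and from 102 to 142 in knockdown libraries, so that the control range lay inside the knockdown range. The log2 fold change was -0.05 (SE 0.07, 95% interval -0.21 to 0.11, adjusted p = 0.612), and 3 knockdown libraries lay on either side of the control mean.

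Coq10a and Coq10b are paralogs that bind coenzyme Q, and their yeast relative is needed for its function in respiration rather than for its synthesis. Coq10a (XLOC_003381, chr10:128362868-128370032) stood at 13.5, 13.96, 14.9, 12.8, 13.1 and 12.6 FPKM across control libraries 1 to 6. Knockdown libraries 1 to 6 gave 9.21, 10.3, 9.06, 11.5, 11.6 and 11.4, with no overlap. The mean fell by 21.9%, from 13.5 ± 0.864 to 10.5 ± 1.17 (SD, n = 6 each), with a log2 fold change of -0.33 (SE 0.07, 95% interval -0.48 to -0.19, adjusted p = 0.00231). Against a minimum fold of 1.2 the call was lost (adjusted p = 0.955). The 95% interval reaches inside 0.23, the 90th percentile of the difference between the arms in the worth of 1 read, which was read from low rows only. Coq10b (XLOC_000195, chr1:55052770-55072701) ran from 13.0 to 16.4 FPKM in control and from 15.5 to 18.8 in knockdown libraries. All 6 knockdown values lay above the control mean of 15.1 ± 1.27 (SD, n = 6), and the log2 fold change was 0.15 (SE 0.06, 95% interval 0.01 to 0.28, adjusted p = 0.0802). Coq10b was called higher after median centring (adjusted p = 0.0261) and after quantile normalization (adjusted p = 0.0204). The difference between the paralogs was not tested.

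**Figure D2:**
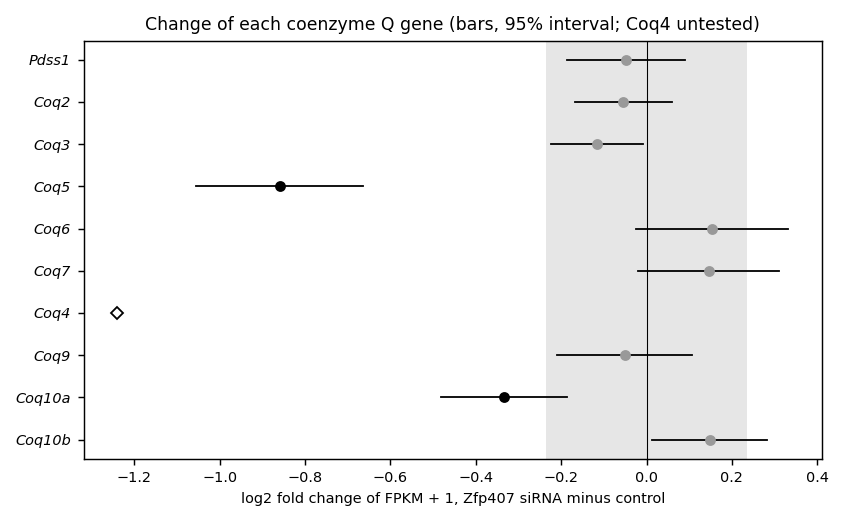
Log2 fold change of FPKM + 1 (horizontal axis, knockdown minus control) for each of the 10 genes. Bars are 95% intervals, black points passed an adjusted p under 0.05, grey points did not, and the open diamond is Coq4, given without a test at -1.24. The shaded band extends 0.23 to either side of 0, the 90th percentile of how far the worth of 1 read differed between the arms in low rows. The intervals of Coq2, Coq3, Coq9 and Pdss1 lie inside it, and that of Coq5 lies wholly outside.

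In the control arm the 10 levels spanned a wide range. By mean FPKM the order was Coq9 (128.5 ± 7.50), Coq5 (68.9), Coq2 (39.4), Coq6 (27.7), Coq7 (19.3), Coq4 (15.4), Coq10b (15.1), Coq3 (14.6), Coq10a (13.5) and Pdss1 (4.68 ± 0.347, SD, n = 6). The ranges of Coq7, Coq4, Coq10b, Coq3 and Coq10a overlapped each with the next, so the order of neighbours is not resolved. By median Coq4 moves from position 6 to 8. Coq7 overlapped Coq4 only through control library 3, and its lowest value (18.2) lay above the highest of Coq10b (16.4), Coq3 (15.4) and Coq10a (14.9). The first 4 and Pdss1 did not overlap their neighbours. The coefficient of variation over control libraries ran from 3.63% (Coq3) to 18.2% (Coq4), and over knockdown libraries from 5.45% (Coq2) to 16.2% (Coq5). The summed level of the 10 genes averaged 347 ± 13.3 FPKM over the 6 controls and 304 ± 26.6 over the 6 knockdowns (SD). That sum includes Coq4, which was picked for its fall. Coq5 (68.9 to 37.9 FPKM) and Coq4 (15.4 to 5.91 FPKM) had the largest falls in mean, whereas the means of Coq6, Coq7 and Coq10b were higher in the knockdown arm. The lower sum is therefore not a fall shared by all 10 genes. Coq9 made up 37.0% of the summed level in control and 40.9% in knockdown libraries, and Coq5 made up 19.9% and 12.5%.

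At 6 of these loci the table holds further rows. Coq4 lies head to head with Trub2, whose human counterpart is a pseudouridine synthase of mitochondrial mRNA. In the GENCODE M21 annotation of GRCm38, Coq4 (plus strand, chr2:29787493-29797935) and Trub2 (minus strand, chr2:29761224-29788502) overlap over 1010 bases. Of the 6 annotated Coq4 transcripts, 4 start inside Trub2, and 921 of 3399 Coq4 exon bases (27.1%) lie in Trub2 exons. The upstream window printed for Coq4 lies in Trub2 and holds 0 bases of its exons. The strandedness of the libraries is not given in these sources, so reads from the shared bases may not be told apart.

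Trub2 did not pass the test. Its control values were 13.5, 11.7, 11.8, 11.4, 14.8 and 14.9 FPKM in libraries 1 to 6, and its knockdown values were 14.6, 13.5, 15.9, 11.3, 16.2 and 15.5. The arms overlapped, with a log2 fold change of 0.14 (SE 0.09, 95% interval -0.06 to 0.35, adjusted p = 0.268). Coq4 accounted for 54.0% ± 5.25 of the summed FPKM of this gene pair over the 6 controls and for 29.1% ± 4.61 over the 6 knockdowns (SD). The sum itself was 28.5 ± 3.03 and 20.4 ± 1.76 FPKM. How reads were divided between these genes was not tested.

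Coq5 ends 137 bases from Dynll1, a dynein light chain gene on the opposite strand, in the same row locus. Dynll1 fell from 291 ± 10.7 to 248 ± 19.0 FPKM (SD, n = 6 each), with no overlap between arms. Its log2 fold change was -0.23 (SE 0.05, adjusted p = 0.00447), less than that of Coq5 in size, and the difference between these genes was not tested. Its call was lost with a minimum fold of 1.2. At the Coq6 locus, Entpd5, an endoplasmic reticulum nucleotidase, fell from 19.2 ± 1.73 to 13.6 ± 0.822 (log2 fold change -0.47, SE 0.06, adjusted p = 8.9e-05), and Aldh6a1, a dehydrogenase of valine breakdown, fell from 190 ± 4.76 to 139 ± 16.9 (log2 fold change -0.46, SE 0.07, adjusted p = 3.5e-04). Fam161b there was also lower (log2 fold change -0.23, adjusted p = 0.0215). Against a minimum fold of 1.2, Entpd5 kept its call (adjusted p = 0.0395), whereas Aldh6a1 (adjusted p = 0.112) and Fam161b did not.

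At the Pdss1 locus, A130006I12Rik had 0.519 ± 0.293 FPKM in control and 1.85 ± 0.492 in knockdown libraries (log2 fold change 0.91). Its control mean lay under the filter of 1 FPKM, and the row passed that filter only through its higher knockdown values. It is therefore given as a description with no test. Its log2 fold change ran from 0.31 to 1.74 over the alternative analyses, and its comparison is marked as failed in the authors' deposited table. The actin regulator Abi1 did not pass there (log2 fold change -0.07, adjusted p = 0.522). The other tested rows at members' loci did not pass either: Gm15777 beside Coq2 (adjusted p = 0.880), Gm13829 beside Coq5 (0.359), 2900006K08Rik beside Coq6 (0.216) and Ciapin1 beside Coq9 (0.578). Gm13547, Rnf113a2, Gm7418, SNORA42, Gm14441 and Gm13357 were under the minimum level and were not tested. The rows of Coq3, Coq7, Coq10a and Coq10b share their loci with no other row.

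**Figure D3:**
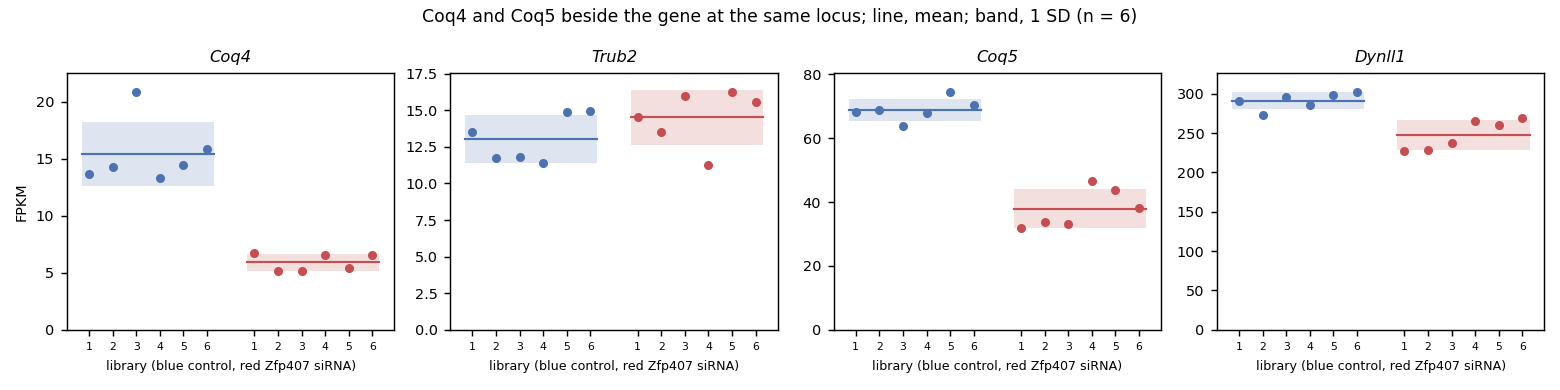
FPKM (vertical axes from 0) of Coq4 and Trub2 and of Coq5 and Dynll1 in the 6 control (blue) and 6 knockdown (red) libraries, with means (lines) and 1 SD (bands). Coq4 separates between the arms and Trub2 overlaps, whereas Coq5 and Dynll1 both separate, with means of 68.9 and 37.9 FPKM against 291 and 248 FPKM.

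The rows whose log2(FPKM + 1) followed Coq4 most closely over the 12 libraries were Gpcpd1 (Pearson r = 0.983), C8g (0.979), Insl6 (0.978), Gm12183 (0.976) and Eif2b5 (0.976). All 5 were lower in the knockdown arm with no overlap between arms, as were 13.9% of all tested rows. Their fall follows from their selection by correlation with Coq4, which was itself picked for its fall. The libraries fall into the 2 arms on each of these genes, so the correlations mostly describe the difference between arms, and they carry no p. Eif2b5, a subunit of a translation initiation factor, averaged 27.3 ± 1.37 FPKM over the controls and 14.5 ± 0.770 over the knockdowns. Gm12183 had a much smaller difference, from 25.4 ± 0.543 to 22.2 ± 0.256 FPKM. The comparison of C8g is marked as failed in the authors' deposited table.

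Other genes that supply, accompany or use coenzyme Q were read from 4 lists. Their counts stand beside the 24.8% of all tested rows called lower and the 11.6% called higher. On the list of other synthesis factors, 3 of 7 tested were lower, 1 was higher and 3 did not pass, with a median log2 fold change of -0.25 beside -0.05 over all rows. The 3 lower include Hpd, which is counted on this list although it is an enzyme of tyrosine breakdown. Pdss2, which forms the tail synthase together with Pdss1, fell from 8.52 ± 1.13 to 5.61 ± 0.844 FPKM (log2 fold change -0.53, SE 0.10, adjusted p = 0.00117), with no overlap between arms. Hpd, a dioxygenase of tyrosine breakdown, fell from 7.33 ± 1.78 to 3.17 ± 0.917 (log2 fold change -0.9985, SE 0.18, adjusted p = 0.00106), although 1 knockdown library lay above the lowest control. Fdxr, the reductase at the head of the mitochondrial ferredoxin chain that serves Coq6, fell from 8.29 ± 0.794 to 5.75 ± 0.845 (log2 fold change -0.47, SE 0.09, adjusted p = 0.00130). The gene that rose was Pptc7, a mitochondrial phosphatase whose yeast relative acts on Coq7, from 12.9 ± 0.696 to 16.2 ± 0.994 (log2 fold change 0.31, SE 0.05, adjusted p = 3.2e-04). Of these 4, Hpd alone also passed against a minimum fold of 1.2 (adjusted p = 0.0168). The authors' deposited table marks neither Pdss2 (q-value 0.899) nor Hpd (q-value 1.00) nor Fdxr (q-value 1.00) as significant. Adck3, the older symbol of the kinase-like gene Coq8a, did not pass (log2 fold change -0.25, adjusted p = 0.0872), and it is named outside the rule for naming genes and after its value was seen.

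In the supply of isoprenoid units, 5 of 8 tested genes were lower, 0 were higher and 3 did not pass, beside 24.8% lower and 11.6% higher over all rows, with a median log2 fold change of -0.28. Mevalonate kinase, Mvk, fell from 28.4 ± 1.61 to 18.2 ± 2.66 FPKM (log2 fold change -0.63, SE 0.08, adjusted p = 1.0e-04) and was the only one to pass against a minimum fold of 1.2 (adjusted p = 0.00972). In the authors' deposited table its q-value is 0.683, not marked significant. Idi1, which isomerises isopentenyl diphosphate, fell from 34.6 ± 7.22 to 25.5 ± 2.16 (log2 fold change -0.40, SE 0.12, adjusted p = 0.0215). Fdps, the farnesyl diphosphate synthase, fell from 104 ± 6.45 to 79.4 ± 11.3 (log2 fold change -0.40, SE 0.08, adjusted p = 0.00277). Pmvk, the next kinase after Mvk, fell from 29.0 ± 2.39 to 23.0 ± 1.82 (log2 fold change -0.32, SE 0.06, adjusted p = 0.00177).

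Among enzymes other than complex I that pass electrons to coenzyme Q, 6 of 10 tested were lower, 1 was higher and 3 did not pass, beside the same 24.8% and 11.6%, with a median log2 fold change of -0.21. After median centring 6 were lower and 2 higher, and after quantile normalization 5 were lower and 2 higher. The 4 largest were Prodh, the proline dehydrogenase (4.61 ± 0.358 to 3.38 ± 0.636 FPKM, log2 fold change -0.37, adjusted p = 0.00602), Sqrdl, which oxidises sulfide (log2 fold change -0.35, adjusted p = 0.0316), Dhodh of pyrimidine synthesis (15.9 ± 0.985 to 12.3 ± 1.47, log2 fold change -0.35, adjusted p = 0.00270) and Sdha, the catalytic flavoprotein of succinate dehydrogenase (607 ± 54.1 to 495 ± 82.0, log2 fold change -0.30, adjusted p = 0.0381). None of the 10 passed against a minimum fold of 1.2. Sdhd, a membrane anchor of the same complex as Sdha, was the gene that rose (log2 fold change 0.23, adjusted p = 0.0126), and it is named after its value was seen.

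Complex III, which oxidises the reduced form, had 0 of 9 tested nuclear-encoded subunits lower, 1 higher and 8 not passing, with a median log2 fold change of 0.10. Over all rows 11.6% were called higher, near the share of 1 in 9. Uqcrq, a small subunit, rose from 627.5 ± 39.3 to 731 ± 70.5 FPKM (log2 fold change 0.22, SE 0.07, adjusted p = 0.0261). After median centring 3 subunits were called higher and after quantile normalization 2, so the count depends on the scaling. All of these changes except those of Hpd and Mvk failed the minimum fold of 1.2. Differences between the lists were not tested.

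**Figure D4:**
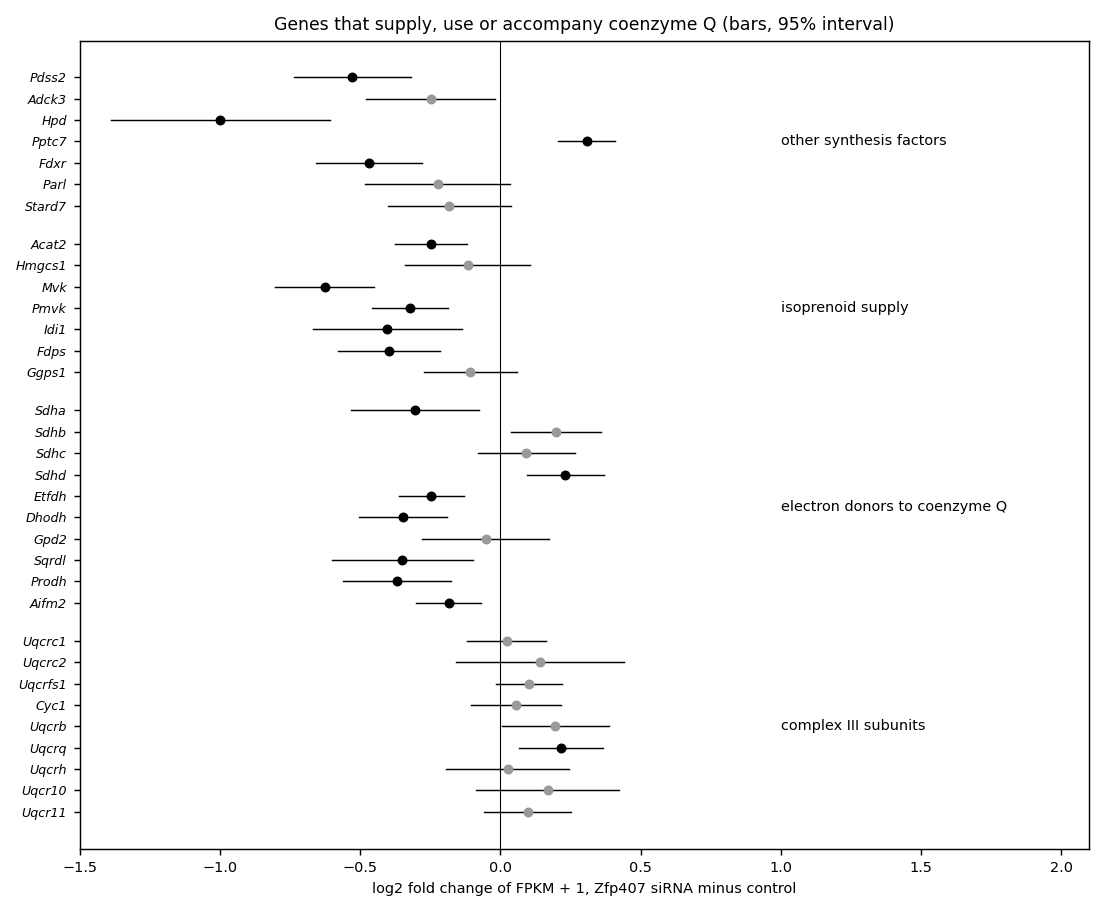
Log2 fold change of FPKM + 1 (horizontal axis, knockdown minus control) with 95% intervals for tested genes of the 4 lists (vertical axis, grouped by list). Black points passed an adjusted p under 0.05 and grey points did not. Of the isoprenoid list, 1 tested gene that did not pass is not drawn. From the top list to the bottom one, 3, 5, 6 and 0 black points lie left of 0.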

How the data were processed

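The deposited table holds FPKM values for each library, made by the authors before deposit, together with, per the file headers, the authors' FPKM of each arm, log2 fold change, p-value and q-value. Cufflinks 2.0.2, SAMtools 0.1.18.0, TopHat2 2.0.5 and Bowtie2 2.0.0.7 are listed in the submitters' processing notes, and build, annotation and strandedness are not given in these sources. Of 18473 rows of coding genes, 99.6% overlapped the same gene in GENCODE M21 (GRCm38), and coordinates are the table's own, counted from 1. FPKM holds no read totals, so depth is unknown in absolute terms; from the most frequent ratio of low values, relative depth ran from 0.88 to 1.15 of control library 1.

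The log2(FPKM + 1) values went into limma 3.58.1 (lmFit, eBayes with trend) in R 4.3.3, two-sided, with Benjamini-Hochberg adjustment over 14706 rows with a mean of at least 1 FPKM. All 10 genes passed that filter. Of the rows, 3036 had no gene name and 629 named several genes. In the lists, Adck4 and Fdx1l stand only in rows naming several genes, Tat, Hpdl and Chdh were under the filter, and Mvd was not analysed here. Another gene of the isoprenoid list is counted but not reported here by name. The worth of 1 read was read from low rows in which all values, within 2%, were whole multiples of the smallest, leaving out differences of 0.5 (log2) or more. Named genes were the 10 members, Zfp407, the 4 called genes of each list with the largest change, all rows at members' loci and the 5 rows most correlated with Coq4; exceptions are stated. The members and lists were chosen with earlier results of these data known. Alternatives were pseudocounts of 0.1 and 5 FPKM, other filters, median centring, quantile normalization, a minimum fold of 1.2, no trend, library weights, summed rows and leaving out each library.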

Additional observations from a re-analysis of the deposited data

Results flagged for a closer look

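For each of the genes described, the highest and lowest library of each arm was compared with the other 5, and a library was marked when its gap to the nearest exceeded Dixon's 95% critical value as a share of the whole range. Of 52 groups of 6 libraries, 2 were marked, and chance alone marks about 1 in 20. Coq4 stood at 20.8 FPKM in control library 3, beside 13.3 to 15.9 in the other control libraries, a gap of 0.657 of the range. Sqrdl, which oxidises sulfide and passes the electrons to coenzyme Q, stood at 68.2 FPKM in control library 2, beside 86.8 to 95.9 in the others, a gap of 0.670 of the range.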

How the results depend on the processing

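Each of the 10 genes had 22 alternative analyses (21 for Pdss1 and Zfp407, which are under the mean of 5 FPKM). Coq5 was called lower in all 22, with log2 fold changes from -0.92 to -0.80. Coq10a lost its call against a minimum fold of 1.2 (-0.33, adjusted p = 0.955), where 1 of the 9 genes was called lower and 856 rows in all were called, beside 5360. The number of genes called higher was 1 after median centring (Coq10b, 0.18) and 2 after quantile normalization (Coq10b, 0.18, and Coq7, 0.19, adjusted p = 0.0404), where Coq2 reversed to 0.0019. Of all rows called, 68.1% were lower, against 57.7% after median centring and 59.96% after quantile normalization. Median centring moved the median log2 fold change of all rows by 0.034 and quantile normalization by 0.019. Leaving out each library in turn gave 4786 to 5525 called rows, 2 to 3 genes called lower, 0 to 0 higher, and -0.50 to -0.44 for Zfp407. The third gene was Coq3, called without knockdown library 6 (-0.14, adjusted p = 0.0474) and also with library weights (-0.13, adjusted p = 0.0309). Coq9 ranged from -0.0911 to 0.0038 when single libraries were left out, and reversed to 0.0038 without knockdown library 2. Coq4 ranged from -1.36 to -0.90, the latter with a pseudocount of 5 FPKM, which by construction shrinks low values. The causes of the other shifts were not tested. No paired analysis was possible because the labels number knockdown samples 1 to 3 within each siRNA while the columns run from 1 to 6 with no tie between them. Small changes in single rows are limited by the difference between the arms in the worth of 1 read. In low rows it reached 0.23 (log2) at its 90th percentile, and it was not read for these genes themselves.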

Other observations

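Knockdown libraries 1 to 3 were the 3 lowest of the 6 knockdown libraries in 6 of the 10 genes, namely Coq3, Coq5, Coq7, Coq9, Coq10a and Coq10b. The order was seen in the values and was not tested, and no siRNA was assigned to any of these libraries. Zfp407 itself was highest in libraries 1 to 3, at 2.13, 1.93 and 1.79 FPKM. In libraries 4 to 6 it stood at 1.65, 1.60 and 1.62. The libraries lowest in these 6 genes are thus not those with the least Zfp407 mRNA, and the relation was not tested. The share of all tested rows with this order in libraries 1 to 3 was not taken, so the count of 6 cannot be read as a trait of these genes. Outside the set, Mvk and Fdps also had libraries 1 to 3 lowest, whereas Dhodh did not. The summed FPKM of the 10 genes, Coq4 included, was 285, 264 and 297 in knockdown libraries 1 to 3. It was 329, 327 and 322 in libraries 4 to 6, beside 329 to 363 in the control libraries. Rnf113a2, at the Coq6 locus and under the minimum level, lay higher in every knockdown library than in any control library and was not tested.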
